A study of Mus musculus with 12 samples.

Results

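Organic ion, sugar and nucleoside transporters are membrane carriers of the Slc2, Slc16, Slc17, Slc19, Slc22, Slc28, Slc29, Slc47 and Slco families. Members were chosen by gene symbol: all numbered genes of these families except Slco1b2 that had at least 10 counts in at least 3 libraries. This gave 58 of the 53599 genes in the table. The family names fitted 87 symbols, of which 28 fell short of the count rule. Slc16 and Slc22 held 13 members each, Slc2 and Slco 8 each, Slc17 held 7, Slc29 held 4, Slc19 held 3, and Slc28 and Slc47 held 1 each. Just inside the rule lay Slc22a27, with 33, 2, 1 and 2 counts summed over the early, intermediate, full and BEC libraries, Slc22a3 with 43, 13, 1 and 2, Slc19a3 with 3, 19, 29 and 27, and Slc16a9. Slc22a7 and Slc22a27 met the rule through the early libraries alone and Slc16a9 through the BEC libraries alone, so a difference in these 3 is in part set by the rule. Just outside it lay Slco4a1 with 43 counts over all libraries, Slc28a2 with 37, Slc2a13 with 30, Slc2a6 with 23 and Slc28a1 with 21.

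The series followed mouse hepatocytes that take on features of bile duct cells, and compared transcription between stages of that change. All mice were WT by genotype and received AAV8-TBG-Cre, a virus in which the hepatocyte promoter TBG drives Cre, so that hepatocytes and their descendants carried EGFP. All were then given a diet with 0.1% DDC, a compound that injures bile ducts, for 8 weeks, and no uninjured group was among the samples. From these livers 4 cell populations were sorted, with 3 libraries each. The early group was EGFP+ Cd24- Epcam-, the intermediate group EGFP+ Cd24+ Epcam- and the full group EGFP+ Cd24+ Epcam+. The BEC group was EGFP- Epcam+, which takes in the resident biliary epithelial cells of the same injured livers and would also take in any descendant of a hepatocyte that the virus had missed. The labels give neither the age, sex nor strain of the mice, nor whether replicates came from separate animals, so p-values measure the spread between these samples.

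Carriers of these families move small solutes across membranes without splitting ATP themselves. Slc2 carriers let hexoses, and in some cases urate, run down their gradients, while Slc28 carriers draw nucleosides in with sodium and Slc29 carriers let them equilibrate. Slc22, Slc47 and Slco carriers handle charged organic compounds, among them drugs, carnitine, bilirubin, bile acids and steroid conjugates, and Slc16 carriers move lactate, pyruvate and aromatic amino acids. The sinusoidal membrane of a hepatocyte is known for uptake of organic ions from blood and for release of glucose. Bile duct cells are known for taking glucose back out of bile.

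The promoters of Slc28a3 and Slc2a2 are shown because these genes stand at opposite ends of the results, one counted only in Epcam+ cells and one highest in early. Each sequence is the 250 bases before the start site, from RefSeq on GRCm38.p6, 5′ to 3′ on the gene's strand. Slc28a3 lies at chr13:58610878-58611127 on the minus strand and Slc2a2 at chr3:28697653-28697902 on the plus strand. Capitals mark the letters GGAATG, the core of the TEAD motif, on either strand.
Slc28a3: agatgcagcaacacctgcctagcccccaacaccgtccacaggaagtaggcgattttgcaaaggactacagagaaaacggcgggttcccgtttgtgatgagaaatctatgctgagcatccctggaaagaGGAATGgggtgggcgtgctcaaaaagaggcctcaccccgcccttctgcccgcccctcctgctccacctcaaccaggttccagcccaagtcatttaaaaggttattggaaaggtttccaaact
Slc2a2: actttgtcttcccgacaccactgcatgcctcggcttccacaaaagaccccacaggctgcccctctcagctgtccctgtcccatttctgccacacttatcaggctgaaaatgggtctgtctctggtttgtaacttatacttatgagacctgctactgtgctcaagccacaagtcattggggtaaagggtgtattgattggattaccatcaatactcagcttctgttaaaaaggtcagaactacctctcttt
The window of Slc28a3 held 1 match, whose first base lay at -122 from the start site, and that of Slc2a2 held none of the 4 motifs searched. The Slc28a3 stretch was 53.6% G and C and that of Slc2a2 47.2%. Of the members, 44 had 57 windows of 300 bases in the table. GGAATG was found in 13 of these windows (22.8%) against 14.7% of all 32851 windows. AACAAT, the core of the SOX motif, was found in 3 (5.26%) against 10.7%. CAAAGTCCA for HNF4 and GTTAATNAT for HNF1 were found in no member window, against 0.475% and 0.801% of all windows. Both strands were searched, no motif contains another, and a match describes the letters only.

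Total counts ran from 15112893 to 19731887 per library, and the members held between 0.175% and 0.284% of them. Levels are given as CPM, counts scaled to the library size after TMM normalization, whose factors were between 0.652 and 0.672 in early and between 1.03 and 1.22 in the other libraries. A floor of 3 counts corresponds to between 0.128 and 0.273 CPM. Summed levels of 8 hepatocyte markers ran from 94610 to 98800 CPM in early, 14470 to 18920 in intermediate, 3162 to 4161 in full and 1963 to 2595 in BEC, and those of 8 biliary markers from 951 to 1912, 9184 to 12110, 11500 to 14780 and 13830 to 17220. The sum of 7 stellate cell and fibroblast markers was 86.0 to 221, 1780 to 2491, 2969 to 3438 and 1666 to 2245 CPM. Rgs5 alone made up nearly all of it outside early, with a mean of 1970, 3185 and 1918 CPM, while Col1a1 and Col3a1 had 40.9 and 61.1 CPM in early and at most 26.5 elsewhere. Among 9 macrophage markers, whose sum was at most 26.0 CPM in early and between 132 and 157 in BEC, Cd68 was the highest in early and Csf1r in the other groups. Their means in early, intermediate, full and BEC were 13.96, 2.74, 1.62 and 3.46 CPM for Cd68 and 3.94, 24.6, 67.8 and 127 CPM for Csf1r, while Adgre1 was at or under 0.522. Markers of endothelium summed to at most 22.3 CPM, those of erythroid cells to at most 32.9, and those of T and NK, B and neutrophil cells to at most 0.513. In early the erythroid sum was nearly all Alas2, with a mean of 24.3 CPM, while Hba-a1 had 0 and Hbb-bs 0.0791. Cd3d, Nkg7, Gzma, Ms4a1 and Ly6g were at 0 in early and full. The part of these other cell types in the results below was not tested. Mitochondrial genes held between 5.45% and 11.4% of counts in early, the highest in replicate 2, and between 2.20% and 4.75% elsewhere.

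Most transporters differed between the 4 groups, and more of them were lower than higher on the way from early to BEC. Of 57 members with enough counts to test, 54 differed across the groups by edgeR's quasi-likelihood F test, against 75.6% of the 16210 genes tested. A member was called where its adjusted p was under 0.05. In intermediate against early, 14 members were higher and 31 lower, against backgrounds of 28.7% and 25.7% of all genes. The 31 include Slc22a7, which met the count rule through early alone. In full against intermediate, 17 were higher and 24 lower, against 20.8% and 19.8%. In BEC against full, 6 were higher and 15 lower, against 10.7% and 10.6%. The lower calls were therefore more frequent than the background at each of the 3 steps, whereas the higher calls were near it at the first step and in BEC against full.

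The median log2 fold change over the members was -0.52, -0.27 and -0.14 at these steps, beside 0.06, 0.01 and 0.00 over all genes. Taken over the whole range, 21 members were higher and 31 lower in full than in early, against 39.1% and 32.1% of all genes, and 20 were higher and 31 lower in BEC than in early, against 40% and 33%. Members were thus nearly all different between the ends of the series, as were most genes. The steps share the intermediate and the full libraries and are not independent of each other. In bulk samples, fewer cells of a type and less RNA per cell cannot be told apart.

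These splits hold on the TMM scale. With library totals alone as the scale, the median of all genes moved to 0.72 in intermediate against early, 0.21 in full against intermediate, 1.005 in full against early and 1.004 in BEC against early. The members then split into 20 higher and 20 lower at the first step (50% higher, beside 31.1% on the TMM scale) and into 21 and 19 at the second (52.5% beside 41.5%). In full against early the split was 24 and 21 (53.3% beside 40.4%) and in BEC against early 24 and 24 (50% beside 39.2%), while in BEC against full it stayed at 28.6% higher. At the first step 10 members lost their call with library totals, among them Slc2a2, Slc2a5, Slc2a8, Slc17a5, Slc17a9, Slc19a1, Slc22a3, Slc22a23 and Slc22a26, and 5 gained one, namely Slc2a1, Slc16a3, Slc16a11, Slc16a12 and Slc19a3. At the second step Slc2a8, Slc16a12, Slc17a5, Slc22a3 and Slc22a23 lost theirs, and Slc16a6, Slc16a11, Slc29a1 and Slc29a2 gained one. In BEC against full the calls did not differ between the scales. Directions below are relative to the TMM scale, and where a described member turned at 1 of the 3 steps with library totals, this is given with its values.

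**Figure D1:**
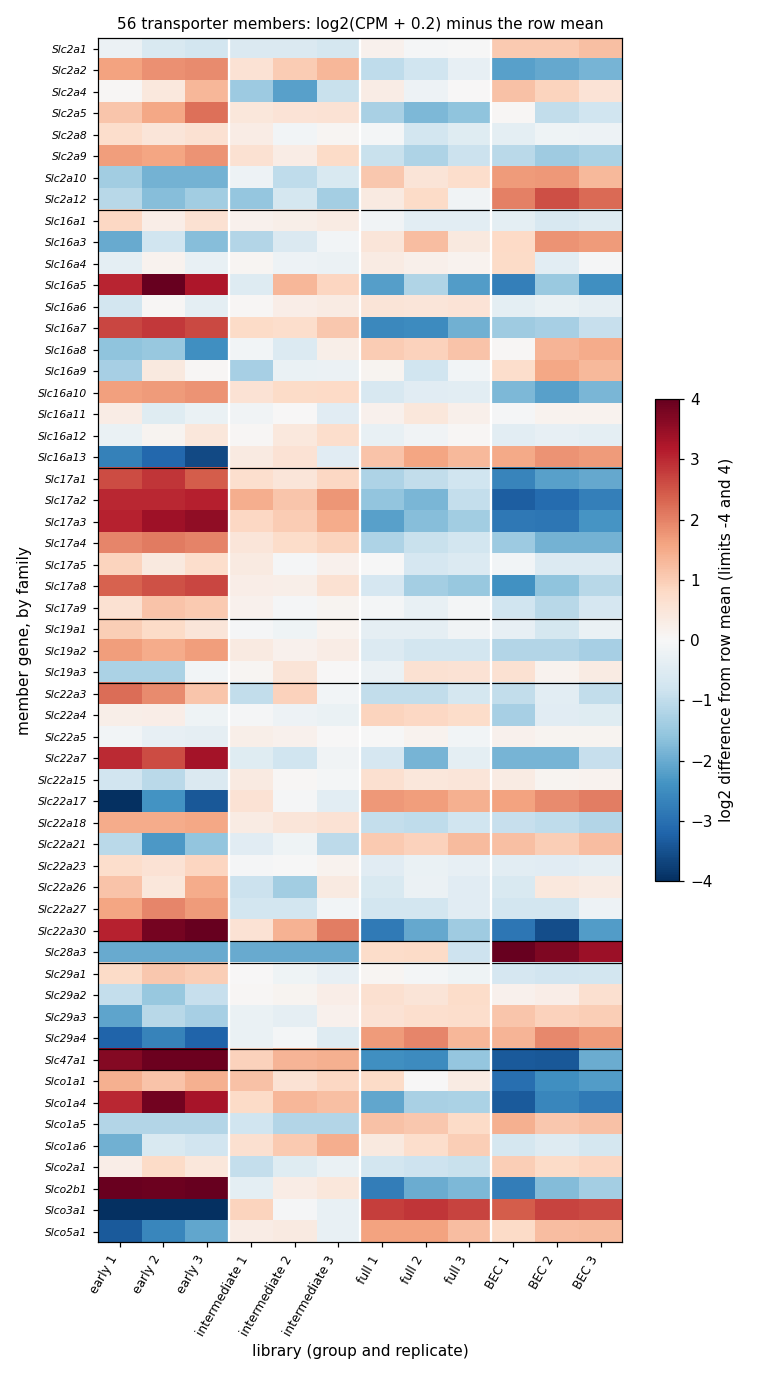
Each row is 1 of 56 members, ordered by family, and each column 1 library; colour gives log2(CPM + 0.2) minus the mean of the row over the 12 libraries, limited to -4 and 4. Red at the left and blue at the right marks members that were high in early, such as Slc17a3, Slc47a1 and Slco2b1, and the reverse order marks Slco3a1, Slc22a17 and Slc29a4.

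Hexose carriers of the Slc2 family changed places: the hepatocyte carrier Slc2a2 fell at each step, while Slc2a1 rose in full and again in BEC. Slc2a2 (GLUT2), the low-affinity carrier through which hepatocytes take up and release glucose, measured 842, 996 and 1038 CPM in early, 413, 563 and 696 in intermediate, 136, 159 and 221 in full and 61.5, 67.4 and 77.4 in BEC. No library of a group overlapped with the next. Its log2 fold change was -0.78 (SE 0.20, adjusted p = 0.00384), then -1.70 (SE 0.20, adjusted p = 1.57e-05), then -1.32 (SE 0.20, adjusted p = 0.000274). The first of these calls was lost with library totals as the scale.

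Slc2a1 (GLUT1), the widespread high-affinity glucose carrier, measured 32.4, 24.7 and 22.5 CPM in early and 25.5, 25.2 and 23.3 in intermediate, which overlapped. It rose to 42.5, 36.8 and 37.4 in full and to 79.1, 77.9 and 87.6 in BEC, all above every library of the group before. The log2 fold change was 0.66 (SE 0.12, adjusted p = 0.000769) in full against intermediate and 1.07 (SE 0.12, adjusted p = 2.42e-05) in BEC against full. With library totals as the scale Slc2a1 was also higher in intermediate than in early, by a log2 fold change of 0.56 (adjusted p = 0.00105).

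Per kilobase of transcript, Slc2a2 made up 80.9% of the summed Slc2 level in early and 79.5% in intermediate, 59.1% in full and 25.6% in BEC. Slc2a1 made up 3.89%, 6.26%, 23.3% and 52.0%. In every BEC library Slc2a1 held at least 50.9% and Slc2a2 at most 27.1%, whereas in every other library Slc2a2 held the larger share. For both shares, full and BEC did not overlap, and the exact 2-sided permutation test gave p = 0.1, the smallest that 3 against 3 allows. The summed Slc2 level per kilobase, with its SD over 3 libraries, went from 213 ± 17.95 CPM in early to 125 ± 25.02, then to 51.8 ± 7.09 and, in BEC, to 48.1 ± 2.82.

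The other Slc2 members lay below Slc2a2 in all 4 groups. Slc2a9, a urate and hexose carrier, measured 69.6, 64.8 and 76.5 CPM in early, 33.5, 26.6 and 36.9 in intermediate and 11.6, 9.01 and 11.9 in full. It fell at both steps, by -1.12 (SE 0.14, adjusted p = 1.64e-05) and -1.57 (SE 0.15, adjusted p = 2.23e-06) on the log2 scale, and reached 10.3, 7.97 and 9.002 in BEC, which overlapped with full. Slc2a8, an intracellular hexose carrier, fell from a mean of 32.3 CPM in early to 22.7 and 15.8, but with library totals its first change turned to 0.16 without a call. Its first call also ended without intermediate replicate 2 (adjusted p = 0.0683), and its second without intermediate replicate 1, full replicate 2 or full replicate 3 (adjusted p up to 0.0885) or with library totals (-0.33, adjusted p = 0.112). Slc2a12, a glucose carrier of the same class as Slc2a10, had 0.163 CPM in early and 0.226 in intermediate, and rose to 1.04 in full and 4.52 in BEC. Slc2a10 went from 1 count over the early libraries to 15 over the intermediate ones, a ratio of 10.4 with a 95% counting interval from 1.60 to 439, and to a mean of 1.07 CPM in full and 2.03 in BEC. Slc2a5, the fructose carrier, and Slc2a4, the insulin-responsive carrier of muscle and fat, had their lowest means in full (0.463 CPM) and intermediate (0.136 CPM).

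**Figure D2:**
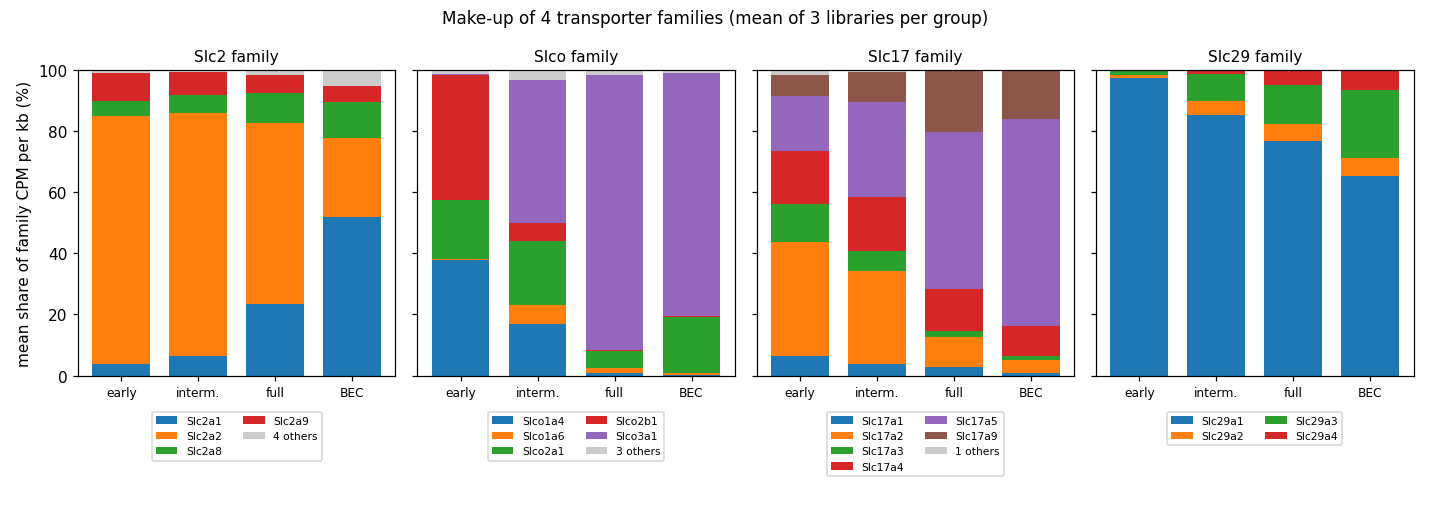
Stacked bars give the mean share, in percent, of each gene in the summed CPM per kilobase of its family in early, intermediate, full and BEC (3 libraries each); genes that never reached 5% are pooled in grey. Slc2a1 grew from 3.89% to 52.0% of the Slc2 family, Slco3a1 from 0.343% to 89.9% in full, and Slc17a2 shrank from 37.1% to 4.17% of the Slc17 family.

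Genes that phosphorylate or release sugars inside the cell were read from a list of 11, of which 9 were tested. In intermediate against early 2 were higher and 6 lower, in full against intermediate 3 and 6, and in BEC against full 2 and 4. That made 88.9%, 100% and 66.7% of the list, beside 54.4%, 40.7% and 21.3% of all genes called in either direction at these steps. The list's median log2 fold change was -1.96, -1.72 and 0.04. Hk1, a hexokinase that works at low glucose, rose from 0.292 CPM in early to 6.61, 37.9 and 73.7, with log2 fold changes of 4.53, 2.52 and 0.96 (SE 0.45, 0.24 and 0.21). Hk2, another such hexokinase, stood at 0.659 and 0.548 CPM in early and intermediate and rose to 2.68 and 10.3. G6pc, which frees glucose from its phosphate, fell from 174 CPM to 18.1 and 3.40.

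Among nucleoside carriers, one was counted only in the Epcam+ groups, while the main surface carrier fell and the lysosomal one rose. Slc28a3 (CNT3), which draws purine and pyrimidine nucleosides into cells with sodium, had 0 counts in all 3 early and all 3 intermediate libraries, which allows up to 0.273 CPM in the shallowest. It had 27, 27 and 6 counts in full and 341, 230 and 187 in BEC, or 1.15, 1.20 and 0.262 CPM and 16.4, 10.7 and 8.55 CPM. Every BEC library stood above every full library, and full replicate 3 was the lowest of its group. Against the floor of 3 counts per library, full was at least 5.00-fold higher than intermediate and at least 3.47-fold higher than early, and BEC at least 47.4-fold higher than early. In BEC against full the log2 fold change was 3.76 (SE 0.48, adjusted p = 0.000369), among the members the largest called rise at this step. Its relatives did not reach the count rule: Slc28a2 had 11, 5 and 8 counts in BEC, and Slc28a1 had 5, 4 and 7 in early and 0 in BEC.

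Of the equilibrative carriers, the surface carrier Slc29a1 (ENT1) measured 127, 155 and 147 CPM in early and 74.4, 65.2 and 59.3 in intermediate, a log2 fold change of -1.11 (SE 0.11, adjusted p = 1.19e-06). Full, at 77.9, 69.4 and 65.1 CPM, overlapped with intermediate. BEC, at 46.1, 43.6 and 44.3 CPM, lay below it, by -0.67 (SE 0.11, adjusted p = 0.000424). Slc29a1 still held 65.1% of the family's level per kilobase in BEC, from 97.2% in early. Slc29a3 (ENT3), which works in lysosomes, rose from 3.96, 8.19 and 6.88 CPM to 14.7, 13.8 and 20.2 in intermediate and 26.5, 28.2 and 29.2 in full. The log2 fold changes were 1.36 (SE 0.21, adjusted p = 9.94e-05) and 0.79 (SE 0.19, adjusted p = 0.00430), and BEC had 38.5, 33.9 and 35.6 CPM without a call. Slc29a2 (ENT2) rose at the first step, from a mean of 1.62 to 4.14 CPM.

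Slc29a4, a carrier of monoamines and other organic cations, had 1 count over the early libraries and 68 over the intermediate ones, a ratio of 47.2 with a 95% counting interval from 8.20 to 1893. It rose again to 5.74, 6.96 and 4.42 CPM in full (log2 fold change 2.12, SE 0.29, adjusted p = 6.85e-05) and had 4.58, 6.71 and 5.80 in BEC. A list of 18 genes of nucleoside salvage and breakdown had 4 higher and 7 lower in intermediate against early, 1 and 3 in full against intermediate, and 1 and 2 in BEC against full, with medians of -0.31, 0.06 and -0.17. The called shares of this list, 61.1%, 22.2% and 16.7%, were near the 54.4% of all genes at the first step and below the 40.7% and 21.3% at the others. Upp2, which splits uridine, fell by 3.30 on the log2 scale (SE 0.52, adjusted p = 0.000106) at the first step. Nt5e, the surface enzyme that makes adenosine from AMP, fell from 13.9 ± 0.328 CPM in full to 1.59 ± 0.329 in BEC (SD, n = 3 each), by 3.12 on the log2 scale (SE 0.34, adjusted p = 1.83e-05). Xdh, which turns purines into urate, was the 1 gene of this list that rose in BEC against full, from 109 to 157 CPM.

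**Figure D3:**
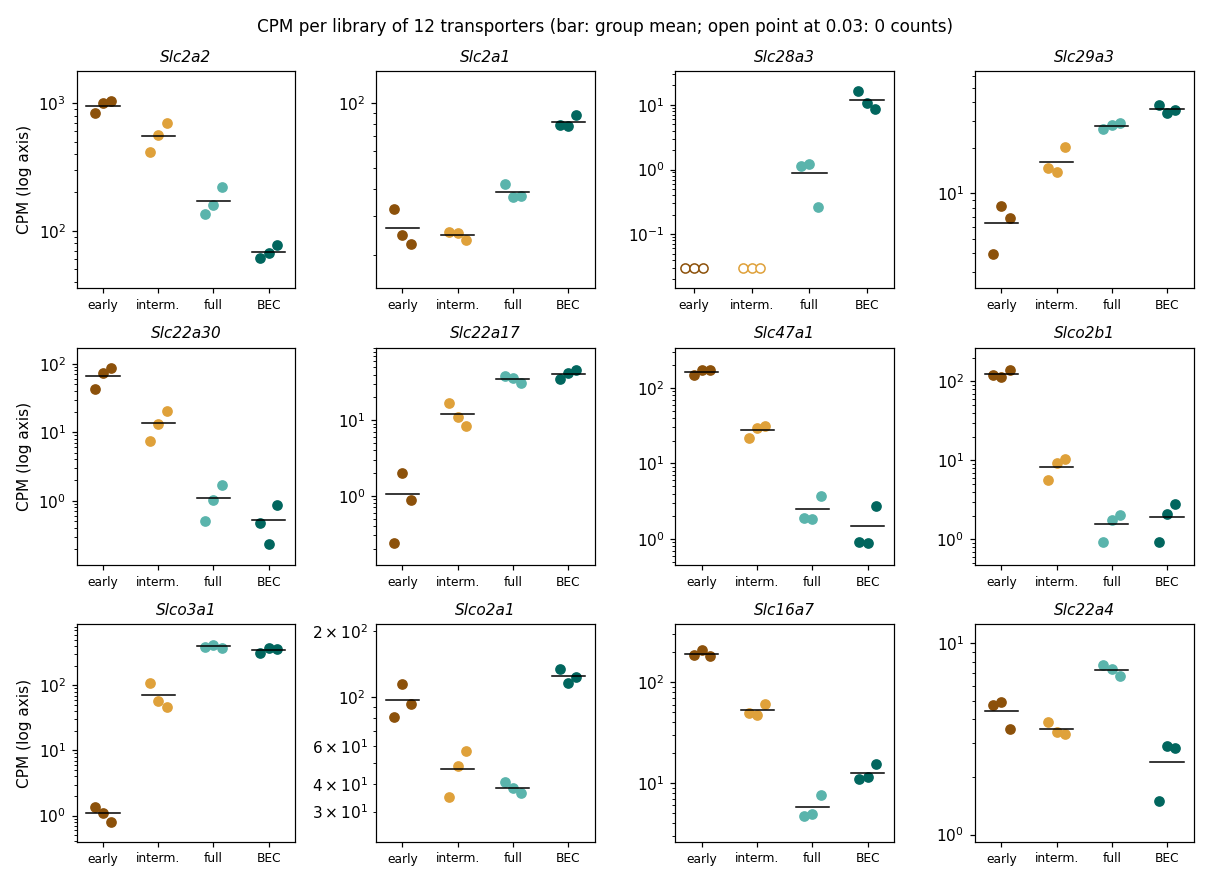
Points give the CPM of each library on log axes for 12 transporters in early, intermediate, full and BEC, bars the group mean, and open points libraries with 0 counts. Slc28a3 is open in all early and intermediate libraries, Slco3a1 lies near 1 CPM in early and above 310 CPM in full and BEC, and the group means of Slco2a1 and Slc16a7 are lowest in full, although for Slco2a1 the lowest single library is intermediate replicate 1.

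Of 12 tested Slc22 carriers of organic cations and anions, 7 fell and 4 rose in intermediate against early, 5 fell and 4 rose in full against intermediate, and 2 fell in BEC against full. These were 91.7%, 75% and 16.7% of the 12, beside 54.4%, 40.7% and 21.3% of all genes. The 7 falls include Slc22a7, whose fall was in part set by the count rule. Slc47a1 (MATE1), which exports organic cations from hepatocytes into bile, measured 147, 175 and 172 CPM in early and 21.8, 29.5 and 30.9 in intermediate. In full it had 1.92, 1.83 and 3.76 CPM, and in BEC 0.915, 0.885 and 2.696, which overlapped and were not called different. Slc47a1 was called lower in BEC than in full without BEC replicate 3 (-1.47, adjusted p = 0.0127). The same held without a low-count filter (-0.76, adjusted p = 0.0187). It fell by 2.59 (SE 0.26, adjusted p = 2.11e-06) and 3.45 (SE 0.31, adjusted p = 1.49e-06) on the log2 scale at the first steps.

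Slc22a7 (OAT2), an organic anion carrier of hepatocytes, had 5.54, 4.18 and 7.04 CPM in early and at most 0.453 in any other library. In counts these were 70, 46 and 87 in early and at most 8 elsewhere, so it met the count rule only through early, and its fall of 4.06 on the log2 scale in intermediate (SE 0.67) is given as a description. Slc22a30, a rodent member of the organic anion branch, measured 42.8, 72.6 and 85.2 CPM, then 7.36, 13.2 and 20.6, then 0.511, 1.03 and 1.71, and 0.482, 0.233 and 0.868 in BEC. It fell by 2.28 (SE 0.36, adjusted p = 0.000120) and 3.67 (SE 0.46, adjusted p = 2.84e-05). Of its sequence, 36.3% in words of 50 bases also occurs in Slc22a27, Slc22a28 or Slc22a29, so its reads cannot be told apart from theirs with certainty. Slc22a27, the member that was not tested, had 33 counts over the early libraries and at most 2 in any other group. Slc22a6 and Slc22a8, the organic anion carriers known from kidney, had 0 counts in all 12 libraries.

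Some Slc22 genes ran the other way. Slc22a17, a receptor for lipocalin-bound iron, measured 0.237, 2.001 and 0.890 CPM in early, 16.9, 10.9 and 8.32 in intermediate and 37.8, 36.0 and 30.6 in full. It rose by 3.56 (SE 0.41, adjusted p = 6.49e-06) and 1.54 (SE 0.28, adjusted p = 0.000568) on the log2 scale, and BEC had 34.9, 42.0 and 46.6 CPM without a call. Slc22a15 rose from a mean of 14.5 to 27.4 CPM at the first step, and on to 36.2 in full, though the second call ended in 5 of 12 fits that left out a library, those without intermediate replicate 2 or 3 or any full replicate (adjusted p up to 0.135). Slc22a3 (OCT3) and Slc22a26 were low throughout, with means of 1.19 and 1.53 CPM in early and at most 0.682 in any other group. The fall of Slc22a3 in full, from 13 counts to 1, lost its call in 11 of 12 fits (adjusted p up to 0.331), and both first calls ended in some, with adjusted p up to 0.103 and 0.0723.

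The carnitine branch was split. Slc22a5 (OCTN2), the main carnitine carrier, measured 23.1, 19.6 and 19.2 CPM in early and 29.2, 28.1 and 24.9 in intermediate, a log2 fold change of 0.41 (SE 0.11, adjusted p = 0.00696), and stayed between 23.1 and 27.8 in full and BEC. In full against intermediate its log2 fold change of -0.13 turned to 0.070 with library totals, in neither case with a call. Slc22a21, its close mouse relative, went from 1.11, 0.364 and 0.728 CPM to 1.82, 2.25 and 1.13 in intermediate and to 5.57, 5.04 and 6.43 in full. The rise in full was 1.71 (SE 0.29, adjusted p = 0.000374), while the call at the first step ended without early replicate 2 (adjusted p = 0.0565) or intermediate replicate 2 (adjusted p = 0.0623). About 27.2% of Slc22a5 and 24.2% of Slc22a21 occurs as shared words of 50 bases, mostly with each other.

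Slc22a4 (OCTN1), which takes up ergothioneine, had 4.75, 4.91 and 3.56 CPM in early and 3.90, 3.45 and 3.34 in intermediate. This change of -0.31 on the log2 scale turned to 0.36 with library totals, in neither case with a call. Slc22a4 rose to 7.70, 7.36 and 6.78 in full, above all other libraries, by 1.03 on the log2 scale (SE 0.24, adjusted p = 0.00365). BEC had 1.49, 2.89 and 2.83 CPM, lower than full by -1.59 (SE 0.24, adjusted p = 0.000321). Slc22a18 and Slc22a23, whose substrates are less well known, fell from means of 195 and 179.5 CPM in early to 36.2 and 84.9 in full. With library totals Slc22a23 was called at neither of the first steps (-0.03 and -0.18, adjusted p = 0.777 and 0.136) nor in full against early (-0.21, adjusted p = 0.0501). Per kilobase, Slc22a18 was the highest Slc22 member in all 4 groups, with 125.8 CPM in early. Over the 13 Slc22 members the summed level per kilobase was 317, 125, 67.8 and 62.0 CPM in early, intermediate, full and BEC.

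Of 9 listed enzymes and partners tied to urate, carnitine and organic anions, 8 were tested, and none was higher at any of the 3 steps, while 7, 8 and 2 were lower. These were 87.5%, 100% and 25% of the list, beside 54.4%, 40.7% and 21.3% of all genes. The list's median log2 fold change was -1.90, -2.56 and -0.12. Gnmt, a glycine methyltransferase abundant in hepatocytes, fell from 962 ± 68.5 CPM in early to 80.0 ± 13.8 and 10.7 ± 1.16 (SD, n = 3 each). Bbox1, the last enzyme of carnitine synthesis, fell from 131 to 20.2 and 2.20 CPM. Pdzk1, a scaffold for apical carriers, fell in BEC against full by 2.61 on the log2 scale (SE 0.42, adjusted p = 0.000454).

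ATP-driven export pumps for organic ions were more mixed. Of 9 tested, 2 were higher and 4 lower at the first step, 2 and 3 at the second, and 1 and 5 in BEC against full, with medians of -0.36, -0.15 and -0.46. The called shares were 66.7%, 55.6% and 66.7%, beside 54.4%, 40.7% and 21.3% of all genes. Abcc2, the canalicular pump for bilirubin conjugates, went from 1523 CPM in early to 563, 236 and 46.5, falling at each step. Abcc6, a hepatocyte pump tied to release of ATP, fell from 321 to 99.4, 23.3 and 5.23. Abcc1 rose from 9.22 to 23.4 and 60.4 CPM, and Abcc5, a pump for cyclic nucleotides, from 38.4 to 128 at the first step.

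In the Slco family, carriers of bulky organic anions, 1 gene rose from near the floor, while Slco2b1 and Slco1a4 fell. That gene, Slco3a1, had the highest level per kilobase of any member in full. Of 8 tested members, 3 were higher and 3 lower at the first step, 3 and 2 at the second, and 1 and 3 in BEC against full. These were 75%, 62.5% and 50% of the family, beside 54.4%, 40.7% and 21.3% of all genes. Slco3a1, a widely expressed carrier of prostaglandins and thyroid hormone, measured 1.35, 1.09 and 0.809 CPM in early, 108, 56.7 and 47.04 in intermediate, 395, 423 and 378 in full and 310.5, 380.1 and 366 in BEC. The early, intermediate and full libraries did not overlap, and intermediate replicate 1 was the highest of its group, while full and BEC overlapped. It rose by 6.02 (SE 0.35, adjusted p = 1.20e-08) and 2.498 (SE 0.24, adjusted p = 2.45e-06) on the log2 scale. BEC against full gave -0.18 (SE 0.22, adjusted p = 0.667).

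The falls of Slco2b1 and Slco1a4 ran the other way over the same libraries. Slco2b1, an uptake carrier for steroid sulphates and drugs, measured 119, 115 and 139 CPM in early, 5.60, 9.15 and 10.3 in intermediate and 0.936, 1.74 and 2.01 in full. It fell by 3.89 (SE 0.28, adjusted p = 7.49e-08) and 2.42 (SE 0.33, adjusted p = 5.19e-05) on the log2 scale, and BEC, at 0.915, 2.10 and 2.79 CPM, overlapped with full. Slco1a4, a rodent uptake carrier for bile acids and cardiac glycosides, went from 77.2, 139 and 93.8 CPM to 15.8, 23.8 and 21.6, to 2.04, 3.66 and 3.81 and to 0.723, 1.35 and 1.14. It fell at each step, by 2.34, 2.69 and 1.55 on the log2 scale (SE 0.24, 0.27 and 0.35), with an adjusted p of at most 0.00587.

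Slco2a1, the prostaglandin carrier that clears prostaglandins from the extracellular space, followed neither course. It measured 81.5, 115 and 93.5 CPM in early, 35.0, 48.5 and 56.8 in intermediate, 40.8, 38.4 and 36.7 in full and 134, 117 and 124 in BEC. Early lay above both middle groups and BEC above early in each library, with full the most uniform. It fell by 1.05 at the first step (SE 0.16, adjusted p = 7.53e-05) and was higher in BEC than in full by 1.69 (SE 0.16, adjusted p = 4.77e-06).

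Slco1a6 rose from 0.475, 1.46 and 1.30 CPM to 3.77, 5.10 and 6.85 in intermediate (log2 fold change 2.30, SE 0.37, adjusted p = 0.000133). Full had 3.11, 3.97 and 4.86 CPM, and BEC, at 1.35, 1.58 and 1.37, was lower than full by -1.47 (SE 0.33, adjusted p = 0.00562). Slco1a1, an uptake carrier for sulphated steroids and bile acids, had means of 3.87, 2.75 and 1.91 CPM in early, intermediate and full without a call at either step, and its first change turned to 0.17 with library totals. In BEC it was at 0, 0.0932 and 0.137 CPM, lower than full by -4.50 on the log2 scale (SE 0.53, adjusted p = 3.26e-05). Slco1a5 had 0 counts in early, 1 over the intermediate libraries and 49 over the full ones, a ratio of full to intermediate of 36.9 with a 95% counting interval from 6.32 to 1487, and full was at least 2.84-fold higher than early. Slco5a1 rose from 0.279 to 3.00 and 7.92 CPM and had 5.97 in BEC. Between 2.26% and 5.60% of the Slco1a genes occurs as shared words of 50 bases, in most cases with each other.

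The summed Slco level per kilobase, with its SD over 3 libraries, went from 70.6 ± 10.04 CPM in early down to 32.1 ± 3.83, then up to 96.6 ± 4.96 and, in BEC, 96.5 ± 7.23. In early, Slco2b1, Slco1a4 and Slco2a1 made up nearly all of it, with 28.4, 27.0 and 13.6 CPM per kilobase. Slco3a1 held 0.343% of the family's level in early, 46.7% in intermediate, 89.9% in full and 79.4% in BEC. Within intermediate this share was 64.5%, 40.8% and 34.6% in the 3 libraries, the widest spread of any group.

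**Figure D4:**
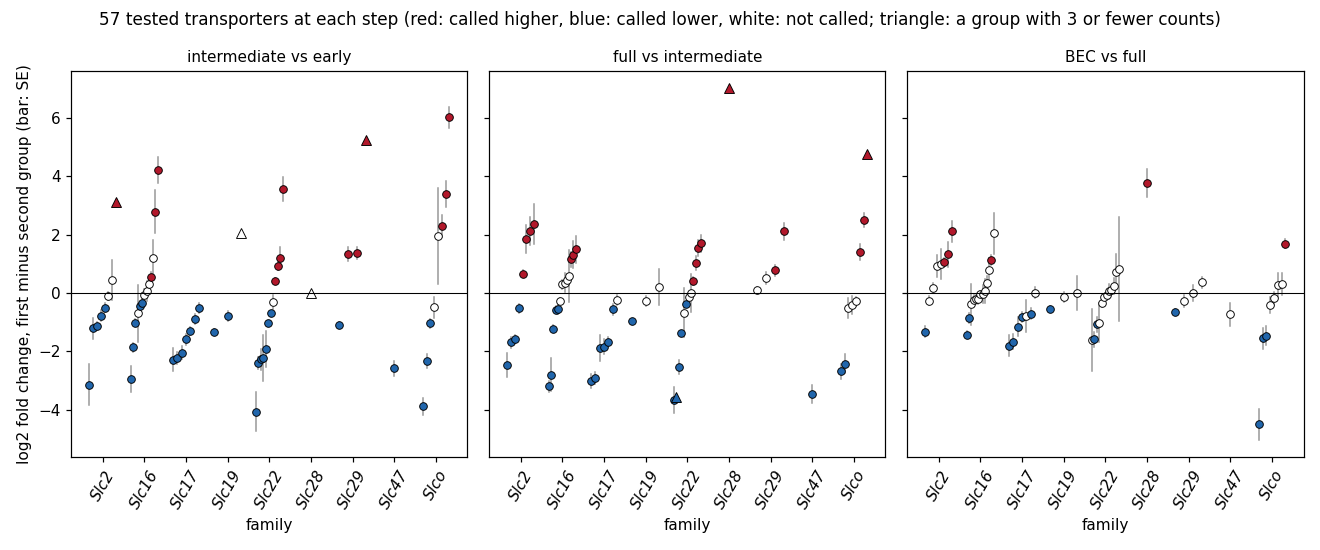
Each point is 1 of 57 tested members, placed by family, with its log2 fold change and standard error in intermediate against early, full against intermediate and BEC against full; red and blue mark calls at an adjusted p under 0.05, and triangles mark fitted values that rest on a group with 3 or fewer counts and are no bound. All 7 Slc17 points lie below 0 in intermediate against early, and most points of BEC against full are white.

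Monocarboxylate carriers of the Slc16 family split into members that fell steeply, members that changed little and members that appeared. Slc16a7 (MCT2), the high-affinity pyruvate and lactate carrier, measured 186, 206 and 183 CPM in early, 49.2, 47.6 and 61.1 in intermediate, 4.72, 4.91 and 7.57 in full and 10.8, 11.5 and 15.3 in BEC. Full was the lowest group, and no groups overlapped. Its log2 fold changes were -1.86 (SE 0.16, adjusted p = 5.20e-07), -3.20 (SE 0.18, adjusted p = 6.38e-08) and 1.13 (SE 0.18, adjusted p = 0.000531). Slc16a5, a carrier with few known substrates, measured 31.95, 77.9 and 36.3 CPM in early, then 2.52, 9.53 and 6.79, and at most 1.47 in full. Its log2 fold changes were -2.94 (SE 0.45, adjusted p = 8.30e-05) and -2.80 (SE 0.55, adjusted p = 0.00116), and early replicate 2 was the highest of its group.

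Slc16a10, which exports aromatic amino acids, fell evenly, from 143 ± 7.94 CPM in early to 70.9 ± 5.56, 30.5 ± 2.58 and 11.4 ± 1.64 (SD, n = 3 each), by 1.01, 1.22 and 1.43 on the log2 scale (SE 0.11, 0.11 and 0.12). Slc16a1 (MCT1), the widespread lactate carrier, measured 127, 86.3 and 110.1 CPM in early, overlapping with 81.2, 85.0 and 90.6 in intermediate. That step's change of -0.33 (SE 0.13, adjusted p = 0.0436) lost its call in 9 of 12 fits that left out a library, with adjusted p up to 0.213 without early replicate 1, and turned to a called 0.33 with library totals. The fall to 65.4, 53.5 and 53.8 CPM in full was -0.57 (SE 0.13, adjusted p = 0.00302).

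Slc16a3 (MCT4), the lactate exporter of glycolytic cells, had 0.158, 0.637 and 0.243 CPM in early and 0.440, 0.767 and 1.13 in intermediate. It was higher at 1.83, 3.17 and 1.71 in full (log2 fold change 1.499, SE 0.46, adjusted p = 0.0177), but not past the threshold without intermediate replicate 1 (adjusted p = 0.0653), intermediate replicate 2 (0.0578) or full replicate 2 (0.0919). BEC had 2.31, 4.80 and 4.48 CPM. Slc16a13 rose from a mean of 0.193 CPM to 3.76 and 8.41, and Slc16a8, known from the retinal pigment epithelium, from 0.113 to 0.814 and 2.02, although its second call ended in 6 of 12 fits that left out a library, among them those without any 1 of the full replicates (adjusted p up to 0.143). Slc16a6 was higher in full, at 27.4, 26.9 and 27.95 CPM, than in early (11.4, 19.7 and 14.7) and BEC (14.6, 15.8 and 15.03), but 24.2% of its words of 50 bases also occur in Amz2 or Arsg, which overlap it on the other strand. Slc16a12, a creatine carrier and the most abundant Slc16 member per kilobase in intermediate, measured 186, 239.7 and 294 CPM there and 145, 163 and 186 in full, a call that ended without intermediate replicate 2 or 3 or full replicate 1 or 2 (adjusted p up to 0.133). With library totals this call was lost too (-0.34, adjusted p = 0.147), and Slc16a12 was instead called higher in intermediate than in early (0.95, adjusted p = 0.000391), beside 0.29 without a call on the TMM scale. Slc16a4, Slc16a9 and Slc16a11 were called at none of the 3 steps in the fit used here. In full against intermediate, Slc16a11 was called by DESeq2 (0.50, adjusted p = 0.0345), with median-of-ratios factors (adjusted p = 0.0492), without a low-count filter, with only the 6 libraries compared and without early replicate 1. In BEC against full, Slc16a9 was called by DESeq2 (2.09), without a low-count filter and with only the 6 libraries compared. It was also called in the fits without early replicate 1 and without intermediate replicate 1. Slc16a9 met the count rule only through BEC, with at most 8 counts in any other library. This difference is thus in part set by the rule and is given as a description. With library totals the change of Slc16a11 in intermediate against early turned from -0.07 to a called 0.60 (adjusted p = 0.0151), and that in full against intermediate was called at 0.66 (adjusted p = 0.0125).

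A list of 14 genes of monocarboxylate handling, all tested, had 1 higher and 9 lower at the first step, 3 and 8 at the second and 3 and 1 in BEC against full, with medians of -1.10, -0.86 and -0.04. The called shares were 71.4%, 78.6% and 28.6%, beside 54.4%, 40.7% and 21.3% of all genes. Ldhb, the lactate dehydrogenase subunit of oxidative tissue, rose from 0.605 ± 0.134 CPM to 10.3 ± 2.09 and 28.4 ± 1.68 (SD, n = 3 each). Ldhd, which oxidises D-lactate, fell from 206 to 31.8 and 12.51. Ckb, brain-type creatine kinase, rose from 3.10 in intermediate to 59.9 in full and 153 in BEC.

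The Slc17 family, carriers of phosphate, urate and other organic anions, had calls in 1 direction only. All 7 members were lower in intermediate than in early, 6 were lower in full than in intermediate and 5 were lower in BEC than in full, and none was higher at any step. These were 100%, 85.7% and 71.4% of the family, beside 25.7%, 19.8% and 10.6% of all genes called lower. With library totals as the scale, Slc17a5 and Slc17a9 lost the first call and Slc17a5 turned to 0.15, and the second call of Slc17a5 was lost too. Slc17a2, a phosphate and organic anion carrier of hepatocytes, measured 170.2, 167 and 180.3 CPM in early, 56.9, 45.0 and 70.6 in intermediate, 6.72, 5.66 and 10.5 in full and 1.93, 2.28 and 2.97 in BEC, with no overlap. It fell by 1.58 (SE 0.19, adjusted p = 1.09e-05), 2.91 (SE 0.21, adjusted p = 2.88e-07) and 1.67 (SE 0.25, adjusted p = 0.000271) on the log2 scale.

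Slc17a1 (NPT1), a urate exporter, fell from 12.8, 15.6 and 11.3 CPM to 3.21, 2.79 and 3.62, to 0.723, 0.892 and 1.05 and to 0.145, 0.280 and 0.320, by 2.04, 1.85 and 1.80 on the log2 scale (SE 0.23, 0.26 and 0.35). Slc17a3 (NPT4), another urate exporter, measured 43.9, 55.2 and 61.8 CPM in early, 9.24, 10.5 and 14.5 in intermediate and 0.979, 1.43 and 1.79 in full. It fell by 2.23 (SE 0.20, adjusted p = 7.33e-07) and 3.02 (SE 0.25, adjusted p = 6.48e-07). Its call in BEC against full (adjusted p = 0.0238) ended without full replicate 2 or 3 or BEC replicate 1 or 2, with adjusted p up to 0.109 without full replicate 3. Slc17a4 fell at each step, from a mean of 76.9 to 31.2, 9.77 and 5.57 CPM.

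Slc17a5 (sialin), the lysosomal exporter of sialic acid, had the smallest first change of the family, from 67.5, 47.7 and 58.8 CPM in early to 46.1, 34.9 and 40.6 in intermediate and 35.5, 22.5 and 24.8 in full, with BEC at 33.6, 24.7 and 25.0. Its call ended in 4 of 12 fits that left out a library at either of the first steps, with adjusted p up to 0.123 without early replicate 1 and 0.131 without full replicate 2. Slc17a9, the vesicular nucleotide carrier, fell from 16.2 to 8.77 CPM at the first step. Its call in BEC against full ended without BEC replicate 2 (adjusted p = 0.0609). Slc17a8, a vesicular glutamate carrier, fell from 7.43 to 1.52 and 0.404 CPM.

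Among the vitamin carriers, Slc19a2, the high-affinity thiamine carrier, fell at each step. It measured 146, 129 and 147 CPM in early, 58.5, 51.5 and 56.4 in intermediate, 30.8, 27.1 and 27.0 in full and 20.2, 20.03 and 18.1 in BEC, with no overlap and log2 fold changes of -1.34, -0.97 and -0.54 (SE 0.09 each). The adjusted p was at most 0.000886. Slc19a1, the reduced folate carrier, fell from 35.9, 30.8 and 25.1 CPM to 17.5, 15.9 and 19.7 (-0.79, SE 0.16, adjusted p = 0.000731), a call lost with library totals, and had 13.9, 13.8 and 16.3 in full and 14.2, 10.95 and 14.9 in BEC. Slc19a3, the second thiamine carrier, had 3 counts over the early libraries and 19 over the intermediate ones, a ratio of 4.40 with a 95% counting interval from 1.30 to 23.2, and was called at none of the 3 steps. It was called at the first step with library totals (2.65, adjusted p = 0.0146) and without early replicate 3 (adjusted p = 0.00762).

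Of 15 listed folate and thiamine enzymes and carriers, 14 were tested. At the first step 2 were higher and 8 lower, at the second 0 and 9, and in BEC against full 0 and 3, with medians of -1.01, -0.63 and -0.08. The called shares were 71.4%, 64.3% and 21.4%, beside 54.4%, 40.7% and 21.3% of all genes. Aldh1l1, which oxidises formyl folate, fell from 1276 ± 93.4 CPM to 275 ± 39.6 and 69.9 ± 8.03 (SD, n = 3 each). Shmt2, the mitochondrial enzyme that loads folate from serine, fell by 2.31 (SE 0.10, adjusted p = 1.18e-09) at the first step. Ggh, which trims folate chains, rose at that step by 0.43 on the log2 scale (SE 0.12, adjusted p = 0.00896).

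Shared or overlapping sequence limits some further values. Words of 50 bases shared with other genes made up 8.69% of Slc2a12 (Tbpl1), 8.31% of Slco2b1 (Gm15635 and Gm34280), 8.21% of Slc29a1 (Gm17080) and 19.6% of Slc16a9 (Gm7097 and Gm9877), all lying on the other strand. The same held for 9.15% of Slc22a3 (Plg). Without knowledge of the strand setting, reads from these overlaps cannot be told apart.

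Read along the 3 steps, the 57 tested members followed courses of calls that held from 1 to 12 members each. Called falls at each step were seen for 9 members, 15.8% of those tested beside 3.52% of all genes, and falls at the first steps without a call in BEC against full for 12, 21.1% beside 11.2%. Called rises at the first steps without a call in BEC against full were seen for 10 members, 17.5% beside 8.07%. A rise that began only in full and went on in BEC was called for 3, or 5.26% beside 2.62%, namely Slc28a3, Slc2a1 and Slc2a12. The other tested members were spread over courses of at most 4 members each.

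Of the 57 tested members, some were called outside both of 2 other groups. No member was called higher in intermediate than in both early and full, against 0.716% of all genes, and 1, Slc2a4, was called lower than both, against 1.05%; without intermediate replicate 2 its call against full ended (adjusted p = 0.0524). Full was called higher than both early and BEC for 3 members (5.26%), Slc16a6, Slc22a4 and Slco1a6, against a background of 4.12%. The call of Slc22a4 in full against early ended without early replicate 3 (adjusted p = 0.0622). Full was called lower than both for 3 members (5.26%), Slc16a7, Slc2a5 and Slco2a1, against 1.66%. For Slc2a5 the rise in BEC, from a mean of 0.463 to 1.18 CPM, lost its call in 8 of 12 fits that left out a library, with adjusted p up to 0.214 without BEC replicate 1, and its first fall lost its call without early replicate 3 (adjusted p = 0.0722) and with library totals (adjusted p = 0.180). These 6 genes had levels in full from under 1 CPM for Slc2a5 to a mean of 38.6 CPM for Slco2a1.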

How the data were processed

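RNA of 12 libraries, 3 per group, was measured by bulk sequencing. Raw read counts by gene symbol were deposited by the authors as 1 table. Per the submitters' processing notes, STAR 2.7.10b, featureCounts 2.0.1, DESeq2 and GRCm39 were used; the annotation, strandedness and treatment of reads matching several genes are not given in the sources used here, so overlapping or near-identical genes are uncertain. A second deposited table of normalized signal was not used.

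Genes were filtered by filterByExpr and scaled by TMM, and 1 fit over 12 libraries with a term per group was tested by edgeR's quasi-likelihood test (R 4.3.3, edgeR 4.0.16, limma 3.58.1), with Benjamini-Hochberg adjustment over 16210 genes and calls at an adjusted p under 0.05. The common biological coefficient of variation was 14.8%. Lengths, overlaps and shared words of 50 bases came from GENCODE M21 on GRCm38, promoters from RefSeq on GRCm38.p6. Intervals and floors cover counting error only, since amplified reads are not independent molecules.

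Members and lists were chosen with earlier results of these data known. Members given in full were Slc28a3, the 4 with the largest called change in each direction per step where the higher group averaged 5 CPM or more, and landmarks of each family; others were chosen after their values were seen. Some genes of these families and lists enter the counts and sums but are not reported here by name. Same-numbered libraries deviated together, with r across genes from 0.121 to 0.293 for intermediate and early, 0.137 to 0.322 for full and intermediate and 0.170 to 0.257 for BEC and full. For full and early r ran from 0.096 to 0.209, and for BEC and early from 0.044 to 0.145. The numbers may thus pair libraries, but what they mark is not given in the sources used here. The fit behind the p-values did not use them, and a replicate block was run as an alternative. Alternatives were DESeq2 1.42.0, other scaling, other filters, fits of 6 libraries, a minimum 2-fold change, a replicate block and leaving out each library. Figures were drawn with Python 3.11.15 and matplotlib 3.10.9.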

Additional observations from a re-analysis of the deposited data

How the results depend on the processing

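Counts of members called stayed within 1.5 times under the alternatives run, except with a test for a change of more than 2-fold, which called 22 members in intermediate against early, 21 in full against intermediate and 6 in BEC against full. With the replicate block the counts were 46, 42 and 23 at these steps, 52 in full against early, 51 in BEC against early and 54 across the 4 groups. The block ended the call of Slc22a3 in full against intermediate and added Slc16a12 at the first step, Slc29a2 at the second, and Slc22a15 and Slc22a30 in BEC against full; it ended no other call of a member at these steps. Fits of only the 6 libraries compared added calls of Slc16a6, Slc16a11 and Slc29a2 in full against intermediate and of Slc16a9, Slc22a15 and Slc29a3 in BEC against full, among others, and ended those of Slc16a1 and Slc22a21 at the first step and of Slc2a5 in BEC against full. Leaving out 1 library at a time, 38 of 45, 33 of 41 and 18 of 21 calls were kept in each fit.

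Log2 fold changes of described members that changed sign with library totals as the scale were, in intermediate against early, Slc16a11 (0.60), Slc2a1 (0.56), Slc22a4 (0.36), Slc16a1 (0.33), Slco1a1 (0.17), Slc2a8 (0.16) and Slc17a5 (0.15), and in full against intermediate Slc22a5 (0.070). This scale raised the median of all genes by construction relative to TMM. With 1 library left out, the log2 fold change of Slc2a1 in intermediate against early ran from -0.21 to 0.069, above 0 without early replicate 1. In BEC against full, that of Slco2b1 ran from -0.044 (without BEC replicate 3) to 0.65 and that of Slc16a5 from -1.01 to 0.13 (without full replicate 2). None of these last 3 was called. Members under about 1 CPM rest on few counts, and differences within their counting intervals were not detectable at this depth.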
